A study of Rattus norvegicus with 82 samples.

Results

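The 10 genes described here encode the enzymes that hydroxylate collagen chains inside the cell and crosslink collagen and elastin outside it: the lysyl oxidases *Lox*, *Loxl1*, *Loxl2* and *Loxl3*, the lysyl hydroxylases *Plod1*, *Plod2* and *Plod3*, and the catalytic alpha subunits of prolyl 4-hydroxylase, *P4ha1*, *P4ha2* and *P4ha3*. They were picked by gene symbol from the 17337 genes of the table, and all 10 were present and passed the filter on low counts. RNA came from cardiomyocytes of the right ventricle (RV) and, apart from them, of the left ventricle (LV), and 82 libraries of 41 rats fall into 12 groups. All rats were F1 offspring of female Wistar Kyoto and male Lewis rats, of both sexes. A clip around the pulmonary artery (PAB) loaded the RV, a clip around the aorta (AOB) loaded the LV, and sham-operated rats served as controls. The letter H marks the compensated stage, harvested 7 weeks after surgery at a labelled age of 11 weeks, with 7 animals of Sham-H and 6 each of AOB-H and PAB-H. The letter F marks the failing stage, with 9 Sham-F and 7 AOB-F animals of 31 weeks (26 weeks after surgery) and 6 PAB-F animals of 28 weeks (22 weeks after surgery). The PAB-F rats were thus younger than the Sham-F rats they are compared with, and the article gives other ages than the labels. The sexes were not balanced between groups. At stage H, 3 of 7 Sham-H, 2 of 6 AOB-H and 4 of 6 PAB-H animals were male. At stage F, 4 of 9 Sham-F, 4 of 7 AOB-F and 4 of 6 PAB-F animals were. Each library is 1 ventricle of 1 animal, and cells were enriched by collagenase perfusion, filtering and slow centrifugation.

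Collagen chains are hydroxylated on proline by prolyl 4-hydroxylase, a tetramer of alpha subunits and protein disulfide isomerase, which lets the triple helix hold at body temperature. Lysyl hydroxylases act on lysine in the same compartment, and *Plod2* modifies the lysines of the collagen telopeptides, from which stable crosslinks are made. After secretion, lysyl oxidases oxidise lysine and hydroxylysine to aldehydes that react into the crosslinks of collagen and elastin. In the heart these enzymes are best known from fibroblasts, and the study itself used *Loxl1* as a fibroblast marker when it checked its cell preparation.

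Because the values are of bulk samples, fewer cells of a type and less RNA per cell cannot be told apart. Total counts per library ran from 6675287 to 19665439, with a median of 13074485.5. Cardiomyocyte markers (9 genes, among them *Myh6* and *Tnnt2*) took between 5.54% and 12.4% of a library's counts. Fibroblast markers (9 genes) took 0.0151% to 0.299%, endothelial markers (7 genes) 0.0594% to 0.467%, mural cell markers (6 genes) 0.0237% to 0.11% and macrophage markers (8 genes) 0.00138% to 0.0269%. *Col1a2*, a defining fibroblast gene, was counted at 0 in every library of 5 groups (RV Sham-H, RV Sham-F, RV PAB-F, LV Sham-H and LV PAB-H), whereas every other marker gene had counts in each group. Several libraries stood apart from their group in more than 1 member: RV PAB-F replicate 1, both ventricles of AOB-H animal 6, LV Sham-H replicate 4, LV PAB-H replicate 2 and LV Sham-F replicate 3.

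The promoters of 8 of the 10 members were found in RefSeq (build GRCr8). The 4 shown are those of *Plod2* and *Loxl1*, which rose together in the pressure-loaded RV, and of *P4ha1* and *P4ha2*, the pair that differed in opposite directions between the ventricles of older shams. Each is the 250 bases before the annotated start, 5′ to 3′ on the gene's strand, and capitals mark every match, on either strand, to the hypoxia response element core ACGTG or the GC box GGGCGG. These motifs occur in 16.9% and 32.4% of 27457 rat promoters of this length. No match to the AP-1 letters TGANTCA (6.36% of promoters) or the TATA letters TATAAA (13.1%) was found in any of the 8 windows.
Plod2 (chr8:101964068-101964317, plus strand): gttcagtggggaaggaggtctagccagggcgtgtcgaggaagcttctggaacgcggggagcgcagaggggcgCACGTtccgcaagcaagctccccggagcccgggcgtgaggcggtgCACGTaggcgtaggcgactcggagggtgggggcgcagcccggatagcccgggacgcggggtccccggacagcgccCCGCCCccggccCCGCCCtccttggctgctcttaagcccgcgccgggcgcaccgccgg
Loxl1 (chr8:67612225-67612474, minus strand): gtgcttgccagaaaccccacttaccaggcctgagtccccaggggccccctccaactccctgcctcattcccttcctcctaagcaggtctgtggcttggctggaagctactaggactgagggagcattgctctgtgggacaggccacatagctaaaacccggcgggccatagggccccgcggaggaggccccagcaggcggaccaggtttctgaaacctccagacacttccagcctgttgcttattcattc
P4ha1 (chr20:27844796-27845045, plus strand): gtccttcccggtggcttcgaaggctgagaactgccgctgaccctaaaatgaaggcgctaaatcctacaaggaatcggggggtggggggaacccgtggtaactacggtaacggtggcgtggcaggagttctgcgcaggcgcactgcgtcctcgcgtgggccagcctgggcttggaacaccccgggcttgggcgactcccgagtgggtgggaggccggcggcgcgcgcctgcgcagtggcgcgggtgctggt
P4ha2 (chr10:38743644-38743893, plus strand): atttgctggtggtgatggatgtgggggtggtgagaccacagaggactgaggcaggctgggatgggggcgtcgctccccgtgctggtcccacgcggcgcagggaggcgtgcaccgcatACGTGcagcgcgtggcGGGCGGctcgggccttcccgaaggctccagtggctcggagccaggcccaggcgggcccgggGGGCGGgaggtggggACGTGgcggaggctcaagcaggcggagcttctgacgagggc
*Plod2* and *P4ha2* each held 2 ACGTG and 2 GGGCGG matches, whereas *Loxl1* and *P4ha1* held neither. A match describes letters only.

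The members spanned a wide range of abundance. In the deposited FPKM values, which are per gene length, *P4ha1* had the highest median in the RV of Sham-F (17.3 FPKM), followed by *Plod1* (13.5), *P4ha2* (10.4) and *Plod3* (8.67). The libraries of each of these neighbours overlapped. *Loxl2* (2.07), *Plod2* (2.06) and *Loxl1* (1.48) formed a lower tier, whose highest library reached 3.36 FPKM against a lowest of 7.57 for *Plod3*. *Lox* (0.913), *Loxl3* (0.64) and *P4ha3* (0.273) lay lowest and overlapped each other. In the LV of Sham-F the order was another one. *Plod1* led at a median of 39.5 FPKM and did not overlap *Plod3* (22.8), and *P4ha2* (17.2) lay above *P4ha1* (11.3), with overlapping libraries. *Loxl1* (6.92) and *Loxl2* (6.58) followed, then *Loxl3* (3.19), *Plod2* (2.57), *Lox* (1.48) and *P4ha3* (0.278). *P4ha3* had at most 25 counts in a library and 0 in 1 of them, so that only very large differences could be detected for it.

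**Figure D1:**
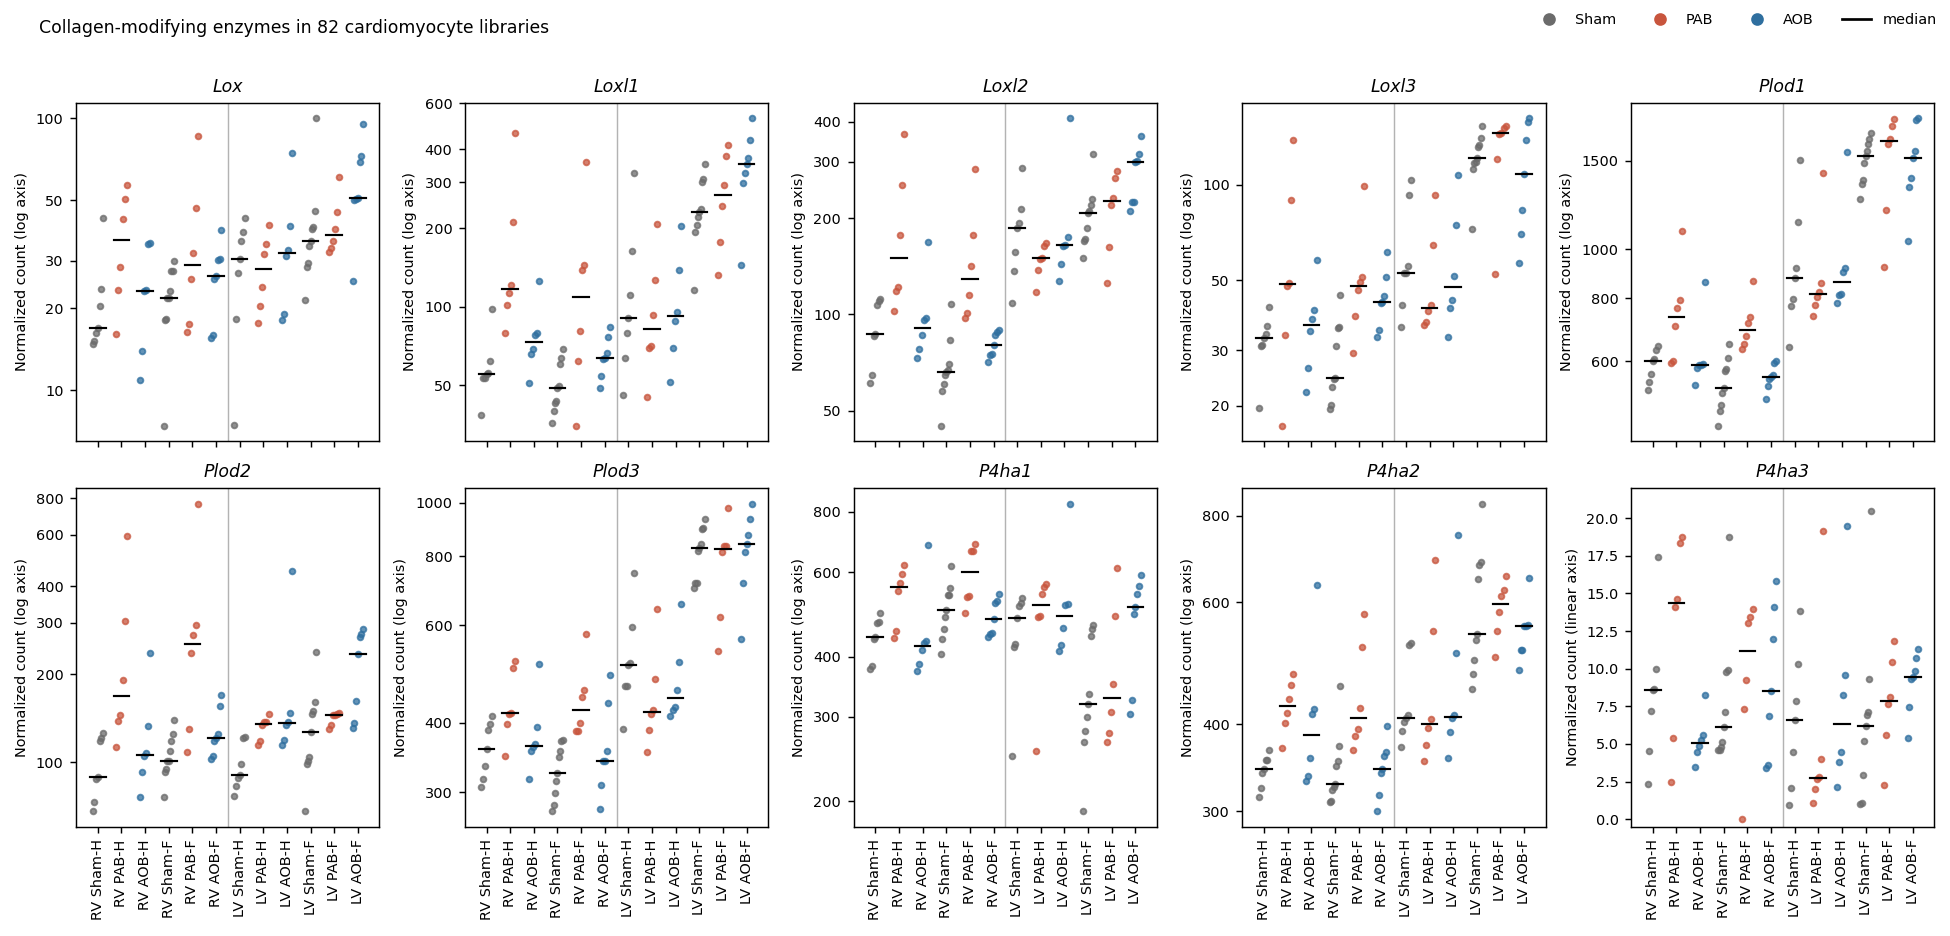
Normalized counts (raw counts scaled by TMM library size) of the 10 enzymes in every library, on log axes except for P4ha3, by ventricle and group. Points are libraries, ordered by value within a group, grey for sham, red for PAB and blue for AOB, and black lines are medians. RV PAB-H replicate 2 and RV PAB-F replicate 1 are the top points for Loxl1 (464 and 358) in their groups, and the older LV groups lie highest for Plod1 and Plod3.

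The first comparison asked how the enzymes respond in the RV when its own outflow is narrowed, at the compensated stage. When RV PAB-H was set against its shams, 4 of the 10 members rose and 0 fell, in a comparison where 4.5% of all 11954 genes tested were called (3.91% as higher, 0.594% as lower) by edgeR's quasi-likelihood test at an adjusted p under 0.05. *Loxl1*, *Loxl2*, *Loxl3* and *Plod2* were the 4. The median log2 fold change of the members was 0.65, against 0.00434 over all genes tested.

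*Loxl1*, a lysyl oxidase tied to elastic fibres, ran from 38.4 over a median of 55.2 to 97.9 normalized counts in RV Sham-H and from 79.03 over 117 to 464 in RV PAB-H. Of the 6 banded libraries 5 lay above every sham library. Its log2 fold change was 1.62 ± 0.37 (SE; adjusted p = 0.00815). *Plod2*, the telopeptide lysyl hydroxylase, ran from 68.3 over 88.8 to 126 in the shams and from 112 over 168 to 597 upon PAB, again with 5 of 6 libraries above all shams (log2 fold change 1.35 ± 0.30, adjusted p = 0.00587). *Loxl2*, which crosslinks collagen IV and fibrillar collagens, ran from 60.9 over 86.9 to 112 and from 102 over 149.7 to 366 (log2 fold change 1.08 ± 0.24, adjusted p = 0.00566). *Loxl2* also had 5 of 6 libraries above all shams. *Loxl3*, the least abundant of the 4, gave 19.7, 32.7 and 41.0 as lowest, median and highest count in the shams and 17.3, 48.4 and 139 upon PAB (0.97 ± 0.30, adjusted p = 0.0467). Its groups overlapped at the low end, where 1 banded library was below every sham.

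The other members did not pass the test, each with a log2 fold change above 0. *Lox*, the founding lysyl oxidase, had a value of 0.75 ± 0.35 (adjusted p = 0.195). *P4ha2* ran from 314 to 367 in the shams and from 369 to 473 upon PAB, so that its libraries did not overlap, as was the case for 3.24% of all genes. Its log2 fold change was nevertheless small (0.31 ± 0.14, adjusted p = 0.178). *Plod1* (0.36 ± 0.15, adjusted p = 0.137), *P4ha1* (0.29 ± 0.18), *Plod3* (0.27 ± 0.13) and *P4ha3* (0.54 ± 0.50) had adjusted p values up to 0.595.

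Each of the 4 calls was lost without RV PAB-H replicate 2. Without that library 0 members were called, the log2 fold changes were 1.08 for *Loxl1* (adjusted p = 0.264), 0.87 for *Plod2* (0.249), 0.79 for *Loxl2* (0.177) and 0.57 for *Loxl3* (0.514), and the share of all genes called fell to 0.225%. *Loxl3* was the least stable of them: its call was lost without any one of 9 of the 13 libraries, and also with RLE scaling, without the count filter, with sex or marker shares as covariates and with the block by number. RV PAB-H replicate 2 held the largest share of fibroblast markers in the series (0.299%). Over the group, the summed fibroblast list rose from 0.0358% ± 0.00801 (SD, n = 7) to 0.103% ± 0.104 (SD, n = 6) of counts (exact permutation test, adjusted p = 0.0408). All 8 tested genes of that list were called higher, and 0 without this library. Endothelial markers rose from 0.0823% to 0.131% (exact permutation, adjusted p = 0.0373) and mural cell markers from 0.0301% to 0.0527% (exact permutation, adjusted p = 0.00874, or 0.054 for the mean log2 CPM of the list), while cardiomyocyte markers took 11.0% and 10.4% (exact permutation, adjusted p = 0.46). With the fibroblast and endothelial shares as covariates 0 members were called, and the values were 0.49 for *Plod2*, 0.46 for *Loxl1* and 0.34 for *Loxl2*. The share of all genes called in that fit is not given, so the count is no result about the members. The fibroblast covariate is built from genes that were themselves called in this comparison. The fit therefore cannot separate a share of other cells from a response to banding, and their part in the result was not tested.

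The same question was put to the RV at the failing stage. Against RV Sham-F, 5 of 10 members rose in RV PAB-F and 0 fell, where 11.1% of all genes were called, 7.66% as higher and 3.42% as lower. The 5 were *Plod2*, *Loxl1*, *Loxl2*, *Loxl3* and *Plod3*, and the members' median log2 fold change was 0.60, against 0.0162 over all genes.

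*Plod2* changed most. It ran from 75.9 over 101.2 to 139.8 normalized counts in RV Sham-F and from 108 over 254 to 768 in RV PAB-F, with 4 of 6 libraries above all shams (log2 fold change 1.498 ± 0.279, adjusted p = 0.000118). *Loxl1* ran from 35.9 over 48.7 to 68.7 and from 35.03 over 109 to 358 (1.43 ± 0.35, adjusted p = 0.00427). Of the banded libraries of *Loxl1*, 1 was below every sham and 4 of 6 were above all shams. *Loxl2* ran from 44.9 over 66.2 to 108 and from 97.1 over 129 to 284 (1.14 ± 0.23, adjusted p = 0.000368). *Loxl3* rose by 0.85 ± 0.29 (adjusted p = 0.0441), from a median of 24.4 to one of 47.7. The *Loxl3* call was lost without any one of 9 of the 15 libraries, without the count filter, with sex or marker shares as covariates and with the block by number. *Plod3*, which also glycosylates hydroxylysine, was the one called member whose groups did not overlap: it ran from 277 over 325 to 373 in the shams and from 387 over 423 to 578 upon PAB (0.43 ± 0.13, adjusted p = 0.018). Such separation held for 2.71% of all genes.

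*Lox* (0.77 ± 0.33, adjusted p = 0.112), *Plod1* (0.39 ± 0.14, adjusted p = 0.0581) and *P4ha2* (0.36 ± 0.13, adjusted p = 0.0613) did not pass, and neither did *P4ha1* (0.24 ± 0.17, adjusted p = 0.338) or *P4ha3* (0.28 ± 0.49, adjusted p = 0.741). The difference between the failing and the compensated response did not pass the test for any member, in a comparison that called 0% of all genes. The widest interval among the 4 shared genes was that of *Loxl1* (difference of -0.19 on the log2 scale, 95% interval -1.20 to 0.82).

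RV PAB-F replicate 1 was the highest library of the group for *Plod2*, *Loxl1*, *Loxl2*, *Loxl3* and *Plod3* alike, and held a fibroblast share of 0.197%. Without it *Plod2* (0.97, adjusted p = 0.0268) and *Loxl2* (0.87, adjusted p = 0.0192) were still called, and *Loxl1* (0.88, adjusted p = 0.17), *Loxl3* (0.58, adjusted p = 0.317) and *Plod3* (0.34, adjusted p = 0.155) were not. Fibroblast markers took 0.0282% ± 0.0119 of counts in the shams and 0.0724% ± 0.0639 upon PAB (exact permutation, adjusted p = 0.0408). Endothelial markers took 0.0774% and 0.124% (exact permutation, adjusted p = 0.0105), and mural cell markers 0.0321% and 0.0476%, with 5 of 6 libraries above all shams (exact permutation, adjusted p = 0.00856). By the mean log2 CPM of each list the endothelial difference passed (exact permutation, adjusted p = 0.0345), and the fibroblast (0.0599) and mural ones (0.0629) did not. With the fibroblast and endothelial shares as covariates 1 member was called, *Loxl2* (0.43 ± 0.13, adjusted p = 0.0436). *Plod2* had 0.64 ± 0.21 (adjusted p = 0.0714), and *Loxl1* 0.27 ± 0.23. No share of all genes called is given for that fit, so its count is no result about the members. Of the 8 tested fibroblast genes, 4 were called higher in this comparison themselves. This fit therefore cannot separate a share of other cells from a response to banding either.

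**Figure D2:**
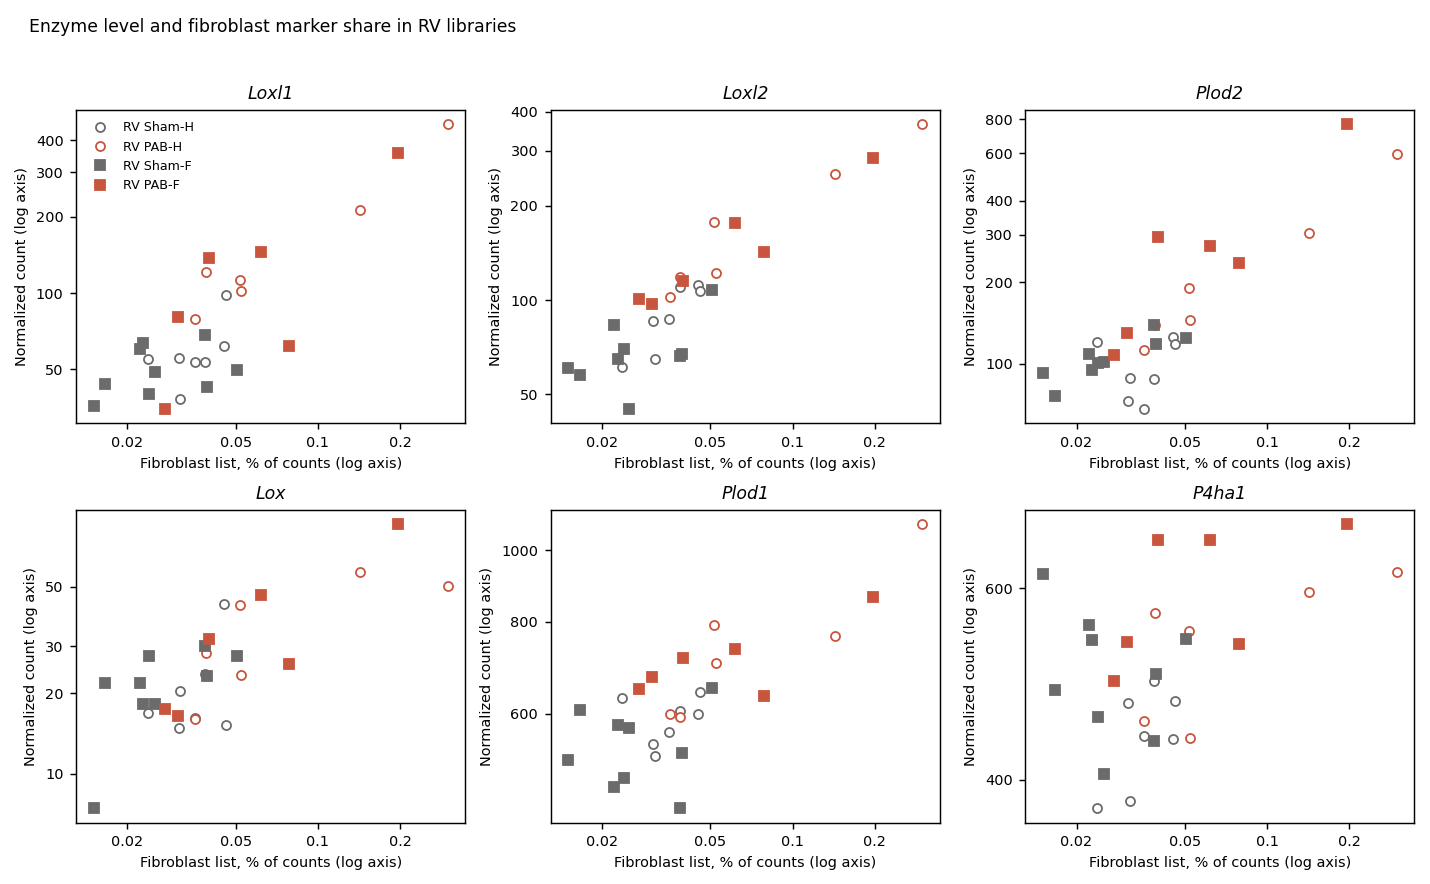
Normalized count of 6 enzymes against the share of counts on 9 fibroblast markers in the 28 RV libraries of Sham-H, PAB-H, Sham-F and PAB-F (both axes logarithmic). Open circles are the compensated and filled squares the failing stage, grey for sham and red for PAB. The 2 libraries at the far right, RV PAB-H replicate 2 (0.299%) and RV PAB-F replicate 1 (0.197%), carry the highest Loxl1, Loxl2, Plod2 and Plod1 counts of the plot.

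The genes these enzymes act on and with were counted from 3 other lists. Of 10 collagen and elastic fibre substrates tested, 6 rose in RV PAB-H (*Col3a1* by 1.37, *Col1a1* by 1.30, *Fbn1* by 1.17 and *Col6a2* by 1.03 on the log2 scale) and 7 in RV PAB-F (*Col3a1* by 1.53, *Col1a1* by 1.43, *Fbn1* by 1.26 and *Col5a2* by 0.94). *Col1a1* and *Col3a1* also stand in the fibroblast list. Of 18 further collagen-modifying and assembly genes, 4 rose in RV PAB-H: *P3h2*, a prolyl 3-hydroxylase (1.15), *Adamts2*, a procollagen N-proteinase (1.12), *Pcolce*, an enhancer of the C-proteinase (1.08), and *Tgm2*, a transglutaminase (0.77). In RV PAB-F, 6 rose, led by *Adamts14* (1.59), *Tgm2* (1.45) and *Pcolce* (1.43), and 1 fell, *Adamts3* (-0.81), which was named after its value was seen. Of 11 HIF-responsive genes 0 were called in RV PAB-H and 1 in RV PAB-F (*Adm*, 0.90), with medians of -0.0212 and 0.0694. These counts stand beside 4.5% and 11.1% of all genes called. They were also taken without 1 library each, a choice made after seeing the data. Without RV PAB-H replicate 2, 0 genes of the 3 lists were called in RV PAB-H (0.225% of all genes). Without RV PAB-F replicate 1, 0 of the 10 substrates, 3 of the 18 modifying genes (*Adamts14*, *Pcolce* and *Tgm2*) and 1 of the 11 HIF-responsive genes (*Adm*) were called in RV PAB-F (2.98% of all genes).

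The same banding left the members of the opposite ventricle without a call. In the LV of PAB-H and PAB-F 0 members were called, as were 0% of all genes in either comparison, and the log2 fold changes ran from -0.32 to 0.44 in PAB-H and from -0.08 to 0.19 in PAB-F. *Plod2* had the highest value in LV PAB-H (0.44 ± 0.30, adjusted p = 0.991). The difference between the RV and the LV response was tested directly. In the fit without the animal, 0 members were called for PAB-H (0% of all genes) and for PAB-F (0.351% of all genes, 0.326% as higher and 0.0251% as lower), although all 10 values were above 0 in both. With the animal as a block, which pairs the ventricles of 1 rat, *Loxl2* was called at both stages. Its difference was 1.25 ± 0.25 (adjusted p = 0.0381) at the compensated and 1.04 ± 0.24 (adjusted p = 0.0133) at the failing stage. That fit was not repeated with libraries left out, and its share of all genes called is not given here. *Loxl2* was higher in the RV in 4 of 6 PAB-H and 1 of 6 PAB-F animals. Its top log2 ratios of RV to LV were 1.12 (PAB-H animal 2) and 0.80 (PAB-F animal 1). *Plod2* had a difference of 1.40 ± 0.40 in PAB-F (adjusted p = 0.11, without the block), and *Loxl1* of 1.93 ± 0.52 in PAB-H (adjusted p = 0.342). Leaving out RV PAB-F replicate 6, the lowest library for *Plod2*, brought that gene past the threshold (1.58, adjusted p = 0.0292). Of the 30 libraries left out in turn, it was the only 1 whose removal gave a call. Without RV PAB-F replicate 1, the highest library for *Plod2*, no member was called.

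**Figure D3:**
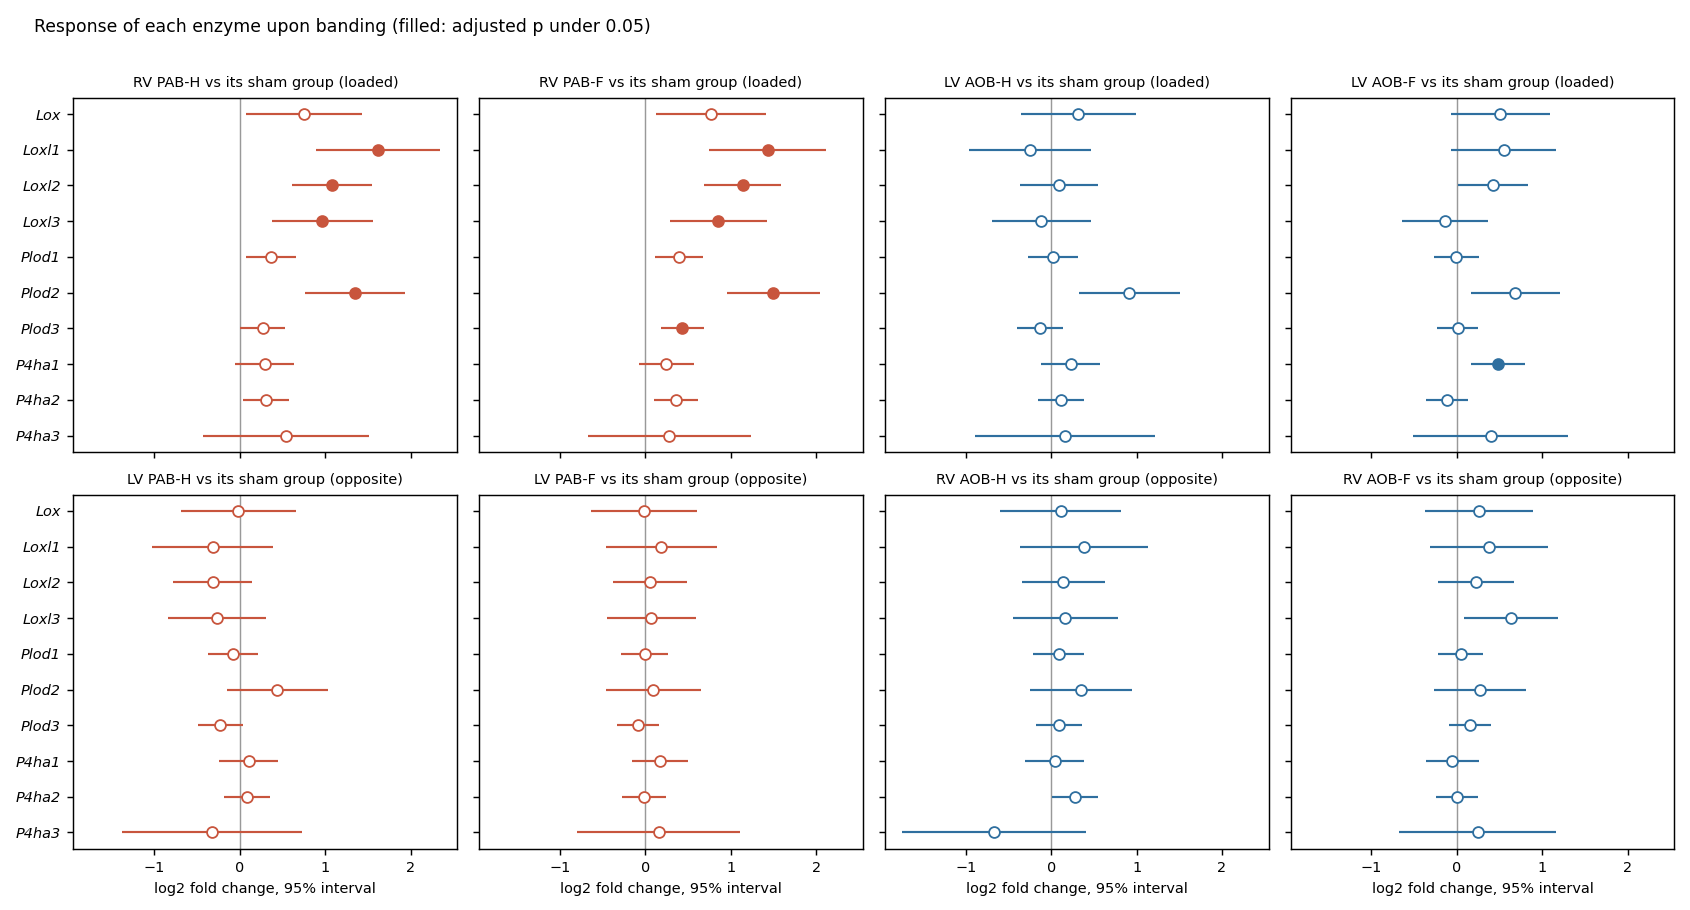
Log2 fold change of each enzyme against the sham group of the same ventricle and stage, with its 95% interval, for the loaded ventricle (upper row) and the opposite ventricle (lower row). Filled points passed an adjusted p under 0.05 in edgeR. Filled points stand in RV PAB-H (4), RV PAB-F (5) and LV AOB-F (1), and none in the lower row.

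Pressure load of the LV gave fewer calls. At the compensated stage 0 members were called in LV AOB-H, in a comparison that called 0.0167% of all genes (0.00837% as higher and 0.00837% as lower). *Plod2* came nearest. It ran from 76.9 over 90.2 to 122 normalized counts in the shams and from 115 over 136 to 453 upon AOB, with 4 of 6 libraries above all shams (0.91 ± 0.30, adjusted p = 0.112). The value of 453 belonged to AOB-H replicate 6, without which the log2 fold change was 0.44 ± 0.29.

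At the failing stage 1 of 10 members rose in LV AOB-F, where 12.9% of all genes were called (8.54% as higher and 4.35% as lower). It was *P4ha1*, a catalytic subunit of prolyl 4-hydroxylase, which ran from 191 over 319 to 466.3 in the shams and from 304 over 507 to 592 upon AOB, with 5 of 7 libraries above all shams (0.48 ± 0.16, adjusted p = 0.0336). The call was lost when any one of 10 of the 16 libraries was left out (adjusted p up to 0.0986). *P4hb*, the protein disulfide isomerase that pairs with this subunit, rose as well (0.49, adjusted p = 0.0025) and was the 1 called gene of the 18 in its list. *Plod2* had a median of 127 in the shams and 235 upon AOB (0.68 ± 0.27, adjusted p = 0.0732), *Loxl1* a log2 fold change of 0.55 ± 0.31, *Lox* 0.51 ± 0.30 and *Loxl2* 0.42 ± 0.21, with adjusted p values of 0.244, 0.249 and 0.169. LV Sham-F replicate 3 was the highest sham library for *Lox* (100.0 against 45.4 for the next). Without it *Lox* (0.80, adjusted p = 0.0413) and *Plod2* (0.85, adjusted p = 0.0199) were called. *Plod2* was also called without LV AOB-F replicate 3, 4 or 5 (adjusted p of 0.0417, 0.049 and 0.0469). The share of all genes called without these libraries is not given. In the RV of AOB-H and AOB-F 0 members were called (0% and 0.0669% of all genes), and the LV response upon AOB-F did not pass a test against that of the RV for any member (0% of all genes).

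Between the ventricles of younger shams, 5 of 10 members were lower in the RV and 0 higher (21% of all genes called, 11.4% as lower and 9.62% as higher). *Plod1*, the most abundant lysyl hydroxylase, ran from 641 over 878 to 1501 normalized counts in the LV and from 525 over 601 to 643 in the RV (-0.69 ± 0.14, adjusted p = 0.000569). It was lower in the RV in all 7 animals. *Loxl2* (-1.03 ± 0.23, adjusted p = 0.00132) and *Plod3* (-0.55 ± 0.13, adjusted p = 0.00212) were also lower in 7 of 7 animals, as was *Loxl3* (-0.95 ± 0.29, adjusted p = 0.0156). *Loxl1* (-1.09 ± 0.36, adjusted p = 0.024) was lower in 6 of 7. *P4ha2* ran from 371 to 524 in the LV and from 314 to 367 in the RV without overlap (4.59% of all genes), and was called with the animal as a block (-0.33, adjusted p = 0.0125) but not without (-0.34 ± 0.13, adjusted p = 0.0575). *Lox*, *P4ha1*, *P4ha3* and *Plod2* had adjusted p values between 0.415 and 0.979. LV Sham-H replicate 4 was the highest LV library for *Loxl1* (326, with 163 for the next). Without it 3 members were called, and *Loxl1* (-0.62, adjusted p = 0.288) and *Loxl3* (-0.76, adjusted p = 0.111) were not. The share of all genes called fell as well, to 5.65%. In the same comparison endothelial markers took 0.0823% in the RV and 0.151% in the LV (exact permutation, adjusted p = 0.0105) and mural markers 0.0301% and 0.0446% (exact permutation, adjusted p = 0.035, or 0.0629 for the mean log2 CPM of the list). These permutations left the pairing of ventricles within an animal out, so the p values do not measure the paired design. With the fibroblast and endothelial shares as covariates 1 member was called, *Loxl2* (-0.66 ± 0.14, adjusted p = 0.00205). *Plod1* (-0.29, adjusted p = 0.0982), *Plod3* (-0.30), *Loxl1* (-0.47) and *Loxl3* (-0.42) were not. The share of all genes called with these covariates is not given, so the count is no result about the members. In endothelial share, 6 of 7 RV libraries lay below every LV library, which limits what this fit can separate.

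In older shams the ventricles lay further apart. Of the 10 members 7 were lower and 1 was higher in the RV, against 74.3% of all genes called (38.6% lower and 35.6% higher), so that a call by itself says little there and the sizes are given. *Loxl1* had the largest difference (-2.25 ± 0.33, adjusted p = 4.6e-09). It ran from 116 over 229.9 to 351 in the LV and from 35.9 over 48.7 to 68.7 in the RV. *Loxl3* differed by -2.09 ± 0.26 (adjusted p = 6.41e-11), *Loxl2* by -1.58 ± 0.21 (adjusted p = 3.85e-10), *Plod1* by -1.47 ± 0.13 (adjusted p = 1.26e-15) and *Plod3* by -1.32 ± 0.12 (adjusted p = 1.37e-15). In these 5 the libraries did not overlap, as in 41.8% of all genes. *P4ha2* differed by -0.77 ± 0.12 (adjusted p = 1.87e-08), with 8 of 9 RV libraries below all LV libraries, and *Lox* by -0.93 ± 0.30 (adjusted p = 0.00403). The median of the members was -1.12, against -0.07 over all genes.

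*P4ha1* went the other way. It ran from 405 over 499.8 to 619 normalized counts in the RV and from 191 over 319 to 466.3 in the LV, and was higher in the RV in 9 of 9 animals (0.57 ± 0.15, adjusted p = 0.000551). *Plod2* did not differ past the threshold (-0.32, 95% interval -0.82 to 0.19, adjusted p = 0.261). *P4ha3* did not either (0.19, 95% interval -0.70 to 1.07). Within the prolyl 4-hydroxylase family, *P4ha1* thus made up 60.4% ± 3.55 (SD, n = 9) of the summed FPKM in the RV and 37.8% ± 5.43 (SD, n = 9) in the LV of Sham-F. The ranges were 55.4% to 65.03% and 30.5% to 48.05% and did not overlap.

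Marker genes of other cells differed in the same comparison. In Sham-F the RV held less than the LV of the fibroblast (0.0282% against 0.074%), endothelial (0.0774% against 0.241%), mural (0.0321% against 0.0722%) and macrophage lists (0.00303% against 0.00944%), and more of the cardiomyocyte list (10.6% against 8.67%), each with an exact permutation adjusted p between 0.000823 and 0.00148. The permutations did not pair the ventricles of the same animal, so these p values do not measure the paired design. With the fibroblast and endothelial shares as covariates, 6 members were called lower, each with a smaller difference. *Loxl3* was then at -0.88, *Loxl1* at -0.81, *Plod3* at -0.80, *Plod1* at -0.69, *Loxl2* at -0.58 and *P4ha2* at -0.36 on the log2 scale. *P4ha1* was called higher (0.60, adjusted p = 0.01), and *Lox* turned to 0.10 (adjusted p = 0.818). *Plod2* (0.66, adjusted p = 0.0159) and *P4ha3* (1.51, adjusted p = 0.0224) were then called higher, the latter a gene of at most 25 counts. For that fit no share of all genes called is given, so the counts are no result about the members. In endothelial share, 9 of 9 RV libraries lay below every LV library. These adjusted values therefore reach beyond shares that both ventricles hold, and they do not settle the part of other cells. The median log2 difference of all genes in Sham-F ran from -0.27 in the fifth of shortest genes to 0.15 in the fifth of longest. The part of gene length in the members' values was not tested.

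**Figure D4:**
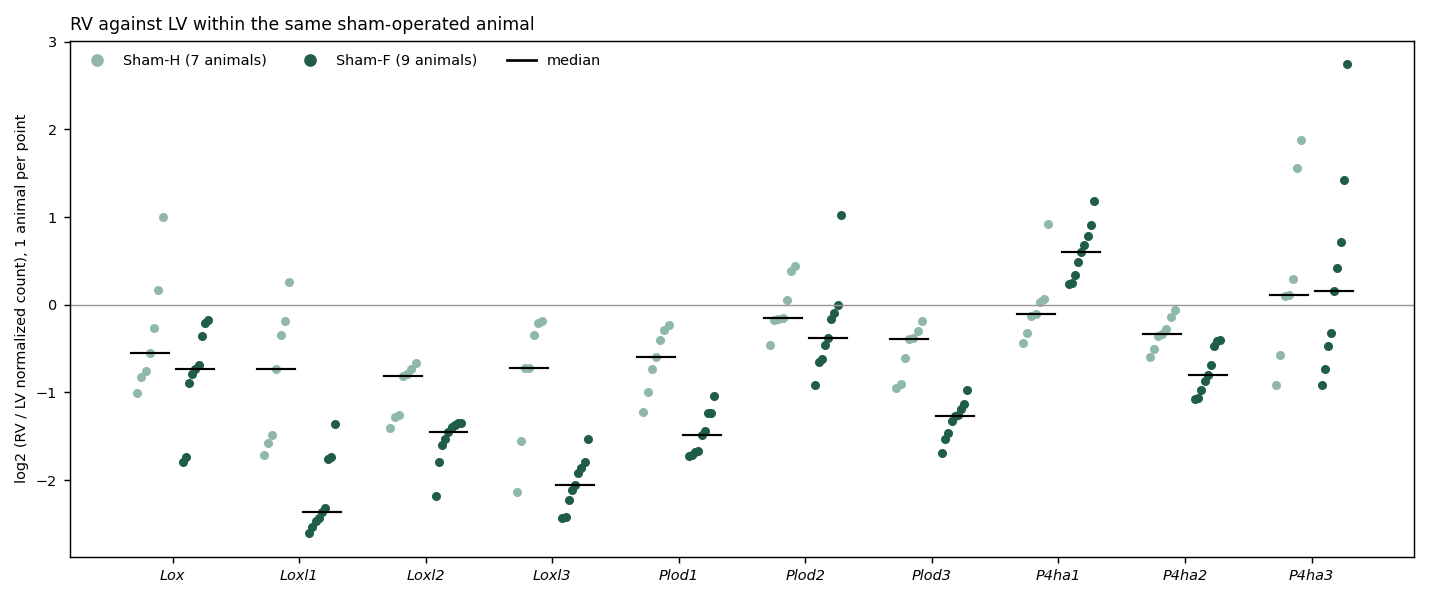
Log2 ratio of the RV to the LV normalized count within each sham-operated animal, pale for Sham-H (7 animals) and dark for Sham-F (9 animals), ordered by value, with black lines at the medians. All 9 Sham-F animals lie below 0 for Lox, Loxl1, Loxl2, Loxl3, Plod1, Plod3 and P4ha2, and all 9 above 0 for P4ha1.

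The difference between the ventricles was set against age by a contrast added after both comparisons had been seen. For 6 members the chamber difference of Sham-F was not that of Sham-H (41.6% of all genes called, 23% as higher and 18.6% as lower). It was more negative for *Loxl1* (-1.16 ± 0.48, adjusted p = 0.0445), *Loxl3* (-1.14 ± 0.39, adjusted p = 0.0153), *Plod1* (-0.78 ± 0.19, adjusted p = 0.00132), *Plod3* (-0.77 ± 0.17, adjusted p = 0.000753) and *P4ha2* (-0.43 ± 0.18, adjusted p = 0.0414). For *P4ha1* it was more positive (0.59 ± 0.23, adjusted p = 0.0291). The call of *Loxl1* was lost without any one of 21 of the 32 libraries and that of *P4ha2* without any one of 22, and both were lost without the count filter and with the marker covariates. The call of *P4ha1* was lost without any one of 4 libraries. With the animal as a block *Loxl2* was called in addition (-0.57, adjusted p = 0.0378).

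Each ventricle was also compared between the ages. In the LV, 5 members were higher in Sham-F than in Sham-H and 1 was lower, where 57.4% of all genes were called (27.8% as higher and 29.6% as lower). *Plod1* had medians of 878 and 1534 normalized counts in the younger and older LV (0.66 ± 0.14, adjusted p = 4.13e-05) and *Plod3* of 509 and 828 (0.63 ± 0.12, adjusted p = 1.86e-05). *Loxl3* (0.97 ± 0.26), *Loxl1* (0.92 ± 0.33) and *P4ha2* (0.45 ± 0.13) were higher as well, with adjusted p values up to 0.0134. *P4ha1* fell from a median of 480 to 319 (-0.40 ± 0.16, adjusted p = 0.029). The call for *P4ha1* was lost without any one of 6 of the 16 libraries. In the RV, 0 members were called between the ages (0.0502% of all genes), and the values ran from -0.38 for *Loxl2* to 0.20 for *P4ha1*. Between these LV groups endothelial markers took 0.151% and 0.241% (exact permutation, adjusted p = 0.0295), mural markers 0.0446% and 0.0722% (exact permutation, adjusted p = 0.024) and cardiomyocyte markers 10.2% and 8.67% of counts (exact permutation, adjusted p = 0.024). By the mean log2 CPM of each list the mural difference passed (exact permutation, adjusted p = 0.0425), and the endothelial (0.151) and cardiomyocyte ones (0.529) did not. With the marker covariates 5 members were called for LV age and 3 (*Plod1*, *Plod3* and *P4ha1*) for the chamber difference between the ages. Both counts lack a share of all genes called and are no result about the members. The stage H and F shams differed in age and in time after surgery together, and a batch of processing cannot be told apart from them.

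The make-up of each family is given as shares, which were not tested. Among the lysyl hydroxylases, *Plod2* held 7.29% ± 1.21 (SD, n = 7) of the summed FPKM in RV Sham-H and 12.8% ± 5.64 (SD, n = 6) in RV PAB-H. At the failing stage it held 8.73% ± 1.93 (SD, n = 9) in RV Sham-F and 15.3% ± 7.8 (SD, n = 6) in RV PAB-F. The highest library held 29.1%. In the LV its share was 4.24% ± 1.5 (SD, n = 9) in Sham-F and 6.7% ± 1.98 (SD, n = 7) in AOB-F. *Loxl1* and *Loxl2* together made up most of the lysyl oxidase FPKM in every group. In the LV, *Loxl2* led the family in Sham-H (48.6% ± 5.97 (SD, n = 7), with 27.9% ± 7.91 for *Loxl1*), whereas in Sham-F the shares were 35.2% ± 3.7 (SD, n = 9) for *Loxl2* and 38.4% ± 5.17 for *Loxl1* and overlapped.

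**Figure D5:**
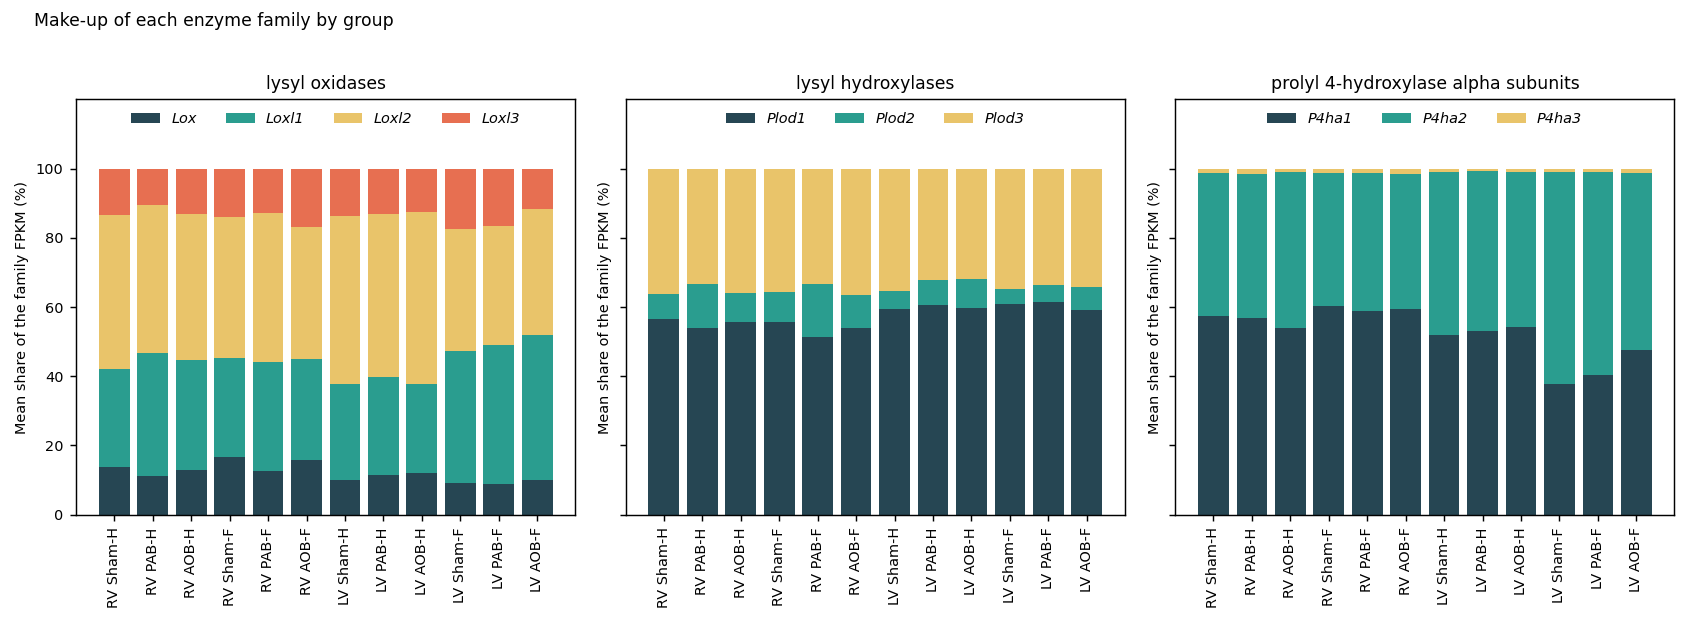
Mean share of each enzyme in the summed FPKM of its family, by ventricle and group (stacked bars reach 100%). P4ha1 takes 60.4% of the prolyl 4-hydroxylase subunits in RV Sham-F and 37.8% in LV Sham-F, and Plod2 takes 15.3% of the lysyl hydroxylases in RV PAB-F.

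Across the 12 group means of log2 CPM, most members moved alike, *Plod2* did so less closely, and *P4ha1* and *P4ha3* did not. As a description over points that share libraries and depth, Pearson's r was 0.985 between *Plod1* and *Plod3*, 0.965 between *Plod1* and *P4ha2*, and 0.945 between *Loxl1* and *Loxl3*, but -0.611 between *Plod3* and *P4ha1* and 0.289 between *Plod2* and *Plod3*. For *Plod2* the values ran from 0.269 with *Plod1* to 0.670 with *Lox*, and it had 0.506 with *Loxl1*. The gene most like *Loxl1* among all tested was *Mmp2*, a gelatinase (r = 0.994, over 12 means), and that most like *Plod1* was *Ramp2* (0.998), an adrenomedullin receptor subunit. For *Lox* it was *Soat1* (0.989), for *Loxl2* *F2r* (0.984), for *Loxl3* *Msx1* (0.992), for *Plod3* *Sh3tc1* (0.994) and for *P4ha2* *Ap5z1* (0.993). *P4ha1* was nearest to *Atp1b3*, a sodium pump subunit (0.975), *Plod2* to *Zfp385b* (0.950), and *P4ha3* to *Plek* (0.863).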

How the data were processed

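Right and left ventricular cardiomyocytes of 41 rats were sequenced as rRNA-depleted total RNA, 1 library for each ventricle. The authors deposited raw counts per gene together with FPKM values; per the submitters' notes they used Trim Galore, STAR, featureCounts and DESeq2 1.28.1, and the article names an nf-core pipeline. Groups came from the labels. The 82 columns of normalized values were not used.

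Raw counts were fitted with edgeR 4.0.16 in R 4.3.3 (TMM scaling, filterByExpr, 11954 genes, 12 group means, quasi-likelihood test), with Benjamini-Hochberg adjustment over all genes and calls at an adjusted p under 0.05. Normalized counts are raw counts scaled to the mean TMM library size. The deposited FPKM values were used only for levels between genes. All 10 members are named, with at most 4 called genes of each other list per comparison, those of largest absolute change, and for each member the gene of highest correlation over group means. The members and lists were chosen with earlier results of these data known.

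Marker shares were compared by two-sided exact permutation tests over 60 comparisons (adjusted together). Libraries were permuted freely, without pairing by animal, also where the RV and LV of the same rats were compared. Alternatives were DESeq2 1.42.0, RLE scaling, no filter, sex, marker shares, replicate blocks, the study's criteria and leaving out each library. Ventricles of 1 animal deviated together: the median correlation of deviations was 0.186 to 0.297 by condition, against -0.0686 to -0.0142 between animals, and the labels give the animal. The fits were tested on simulated data.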

Additional observations from a re-analysis of the deposited data

Results flagged for a closer look

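Of 120 sets of group values of the members, 27 held a library far from the others of its group by Dixon's criterion. For normally distributed values chance meets it in about 1 in 20 groups. The counts were not put on a log scale and the sets share libraries, so 27 cannot be judged against that rate. Both ventricles of AOB-H animal 6 recurred. The LV library was highest for *Loxl2* (411 normalized counts), *Plod1* (1560.2), *Plod2* (453) and *P4ha1* (833), and held a fibroblast marker share of 0.147%. Its endothelial marker share of 0.467% was the highest of the series (group median 0.134%). Its total of 6675287 counts was the lowest of the series. The RV library of that animal was highest for *Loxl1* (126), *Loxl2* (168), *Plod1* (861), *Plod2* (236), *P4ha1* (682) and *P4ha2* (636), with a fibroblast share of 0.0662%. Its endothelial share was 0.239% (group median 0.0757%).

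In the banded RV, PAB-H replicate 2 stood apart for *Loxl1* (464), and PAB-F replicate 1 for *Loxl1* (358), *Loxl3* (99.0) and *Plod2* (768). In the younger shams LV replicate 4 was highest for *Loxl1* (326) and lowest for *P4ha1* (248), RV replicate 4 was highest for *Loxl1* (97.9), and RV replicate 2 for *Lox* (42.9). In LV PAB-H replicate 2, *Plod1* (1416) and *P4ha3* (19.2) were highest and *P4ha1* (254) was lowest. In the older shams LV replicate 3 was highest for *Lox* (100.0) and *Loxl2* (317), LV replicate 9 for *P4ha3* (20.5), RV replicate 2 for *P4ha3* (18.7) and RV replicate 5 for *P4ha2* (455). *Loxl3* was lowest in LV PAB-F replicate 5 (52.3).

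The difference between RV and LV was not the same in older as in younger shams for 6 members (41.6% of all genes called). It was tested by a contrast of the difference itself, added after both comparisons had been seen. The calls of *Loxl1*, *P4ha2* and *P4ha1* were lost without any one of 21, 22 and 4 of the 32 libraries. The log2 difference between the ages was -1.16 for *Loxl1*, -1.14 for *Loxl3*, -0.78 for *Plod1*, -0.77 for *Plod3*, -0.43 for *P4ha2* and 0.59 for *P4ha1*.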

How the results depend on the processing

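Of 855 alternative values for 35 single-member results, 736 kept their direction and side of the threshold, 118 kept the direction but no longer passed, and 1 reversed: *Lox* between the ventricles of Sham-F, at 0.10 with marker shares as covariates. Those covariates left 0 members called in RV PAB-H, 1 in RV PAB-F, 1 between the ventricles of Sham-H and 3 for the chamber difference between ages. Without the filter on low counts 0 were called in LV AOB-F. Under the study's 3 criteria the counts were 3 in RV PAB-F (1.9% of all genes) and 0 in LV AOB-F (1.21%). Between the ventricles they were 2 in Sham-H (2.83%) and 5 in Sham-F (27.7%), and for LV age 0 (8.05%). Leaving out 1 library gave 0 to 4 members in RV PAB-H, 2 to 6 in RV PAB-F, 0 to 3 in LV AOB-F, 3 to 6 and 7 to 8 between the ventricles of Sham-H and Sham-F, 5 to 6 for LV age, 0 to 1 for the PAB-F response of RV minus LV, 3 to 6 for the chamber difference between ages, and 0 in the other comparisons. Marker lists passed in 18 of 60 tests by share and 10 by score. In 19 of 120 family shares, normalized counts in place of FPKM moved the value by more than 1 SD. Beside the counts with covariates, without the filter or with 1 library left out, no share of all genes is given here. The causes were not tested.

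With the animal as a replicate block, 1 member was called for RV minus LV in PAB-H and 1 in PAB-F. Between groups only a number is shared (median correlation -0.103 to 0.160), and the block by number gave 3 members in RV PAB-H, 4 in RV PAB-F, 1 in LV AOB-F and 6 for LV age. For both blocks no share of all genes is given beside the counts. Low counts limit *P4ha3* most.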

Other observations

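Within banded animals the ventricles were compared as values, with no test. In PAB-H, where the RV was loaded, *Loxl1* was higher in the RV in 5 of 6 animals (median log2 ratio 0.59), whereas it was so in 1 of 7 Sham-H animals (median -0.74). *Loxl2* was higher in the RV in 4 of 6 PAB-H animals and 0 of 7 Sham-H animals. *Plod1* stayed lower in the RV in 6 of 6 PAB-H animals (median -0.25).

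In PAB-F, *Plod2* was higher in the RV in 4 of 6 animals (median 0.78), with a range of -0.27 to 2.504, and in 1 of 9 Sham-F animals (median -0.38). *P4ha1* was higher in the RV in 6 of 6 PAB-F animals (median 0.70). *Loxl3*, *Plod1*, *Plod3* and *P4ha2* were lower in the RV in all 6. In AOB-F, where the LV was loaded, *P4ha1* was higher in the RV in 4 of 7 animals (median 0.03), and *Plod2* was lower in the RV in 7 of 7 (median -0.69).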
